A study of Homo sapiens with 12 samples.

Results

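Non-additivity of 2 drugs is described here for gene expression in MDA-MB-468 cells, an established line of basal-like, triple-negative breast cancer. For each gene the response to SAHA (vorinostat, an inhibitor of zinc-dependent histone deacetylases) in cells pretreated with sonidegib (an inhibitor of the Hedgehog receptor Smoothened) was compared with its response in cells without sonidegib. The difference between these responses on the log2(TPM + 1) scale, where TPM is a transcript abundance corrected for gene length and library size, is called the interaction; it is 0 when the effects of the drugs add on that scale. Of 59324 genes, the 13937 whose TPM averaged 1 or more over the libraries were tested. A gene lies above the additive expectation when the interaction is positive and below it when negative, and it was called at a Benjamini-Hochberg adjusted p under 0.05 in limma. By this rule 1642 genes were above and 2739 below.

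The 12 libraries fall into 4 groups of 3, labelled Con, SAHA, sonidedgib (the labels' spelling) and SAHA+sonidedgib. The control cells have no agent named in their labels, and no vehicle is given. SAHA was given at 10 µM for 12 h, and sonidegib at 10 µM as a pretreatment of 72 h; the time at which the cells with sonidegib but no SAHA were collected is not stated separately. All groups are of the same cell line, and nothing says whether the replicates were separate cultures, so p-values measure the spread between these samples, which may be technical. Whether all groups were prepared together is not given in the sources used here.

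Histone deacetylase inhibitors raise the acetylation of histones and other proteins. They both induce and repress many genes, classically inducing the cell cycle inhibitor CDKN1A (p21) and lowering genes of proliferation. Smoothened relays the Hedgehog signal to the GLI transcription factors, whose targets GLI1 and PTCH1 are the usual readouts of the pathway. When a gene responds to each of a pair of drugs, additivity on a log scale means that their fold changes multiply.

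Genes that define the line were present: EGFR lay between 516 and 678 TPM over the 12 libraries and KRT5 between 446 and 617, with KRT8, KRT18 and EPCAM also expressed. PGR was listed at 0 in all libraries and ESR1 reached 1.76 TPM. Of 13 leukocyte markers 4 were listed at 0 in all libraries and PTPRC did not exceed 0.01 TPM; the summed level of the list was 302 to 348 TPM in the 9 libraries outside the combination and 217 to 233 in the combination, most of it CD14. CD14 was itself below expectation at −0.53 ± 0.07 (SE). Between 13204 and 13874 genes reached 1 TPM per library. Libraries of 1 group correlated at r = 0.967 to 0.980 on the log2 scale, and libraries of different groups at 0.906 to 0.956. Summed 5S ribosomal RNA was 0 TPM in the 6 libraries without sonidegib and 1488 to 12641 in the 6 with it, and mitochondrial ribosomal RNA took 0.565 to 1.35% of TPM without sonidegib and 2.06 to 2.86% with it. The interaction sets a SAHA response within the second set of libraries against one within the first. TPM were also rescaled without ribosomal RNA genes, their pseudogenes and all genes of the mitochondrial genome. In that setting 1580 genes were above and 2977 below.

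Calls for the interaction made up 31.4% of the genes tested, 11.8% above and 19.7% below. The SAHA response itself was called for 58.7% of genes without sonidegib and 38.5% after it. The sonidegib response was called for 55.3% without SAHA and 50.9% with it. Of the genes above, 228 lay at least 2-fold from expectation and 20 at least 4-fold; of those below, 721 and 59 did. Without any model, the 9 differences between library pairs after sonidegib did not overlap the 9 without it for 4292 genes. These were 30.8% of those tested, and 3959 of the called genes met this too. The differences reuse the values of the fit and are not replicates, so these counts are no separate support. The median interaction over all genes tested was −0.07.

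The split between the directions depended on how libraries were scaled. In the deposited TPM 37.5% of the calls were above. With median-of-ratios scaling 2581 genes were above and 2251 below (53.4% above), with 75th percentile scaling 2337 and 2469 (48.6%), and with quantile normalization 2373 and 2345 (50.3%). Median-of-ratios scaling moved the median of all interactions by 0.10 on the log2 scale, and the number of calls in each direction moved with it. Single genes were steadier: 1589 of the 1642 genes above and 2043 of the 2739 below were called with the same sign under all 4 scalings.

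Most non-additivity took the form of a SAHA response that was smaller, or no longer called, in cells pretreated with sonidegib. Among genes above, 553 were lowered by SAHA in both backgrounds but less after sonidegib, and 815 were lowered only without it; together these were 83.3% of the genes above. Among genes below, 749 were raised by SAHA in both backgrounds but less after sonidegib, and 1231 were raised only without it, together 72.3%. The median SAHA response of the genes above was −0.73 without sonidegib and −0.11 after it, and that of the genes below 0.75 and −0.003. These shares describe the called genes and carry no test, because the response without sonidegib enters the interaction with a minus sign.

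Other forms were less frequent. The SAHA response was called in both backgrounds with opposite signs for 82 genes above and 273 below. It was larger in the same direction after sonidegib for 20 above and 100 below, and called only after sonidegib for 155 and 331. Read from the side of sonidegib, its response was smaller with SAHA, or called only without SAHA, for 952 genes above (58.0%) and 1098 below (40.1%).

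**Figure D1:**
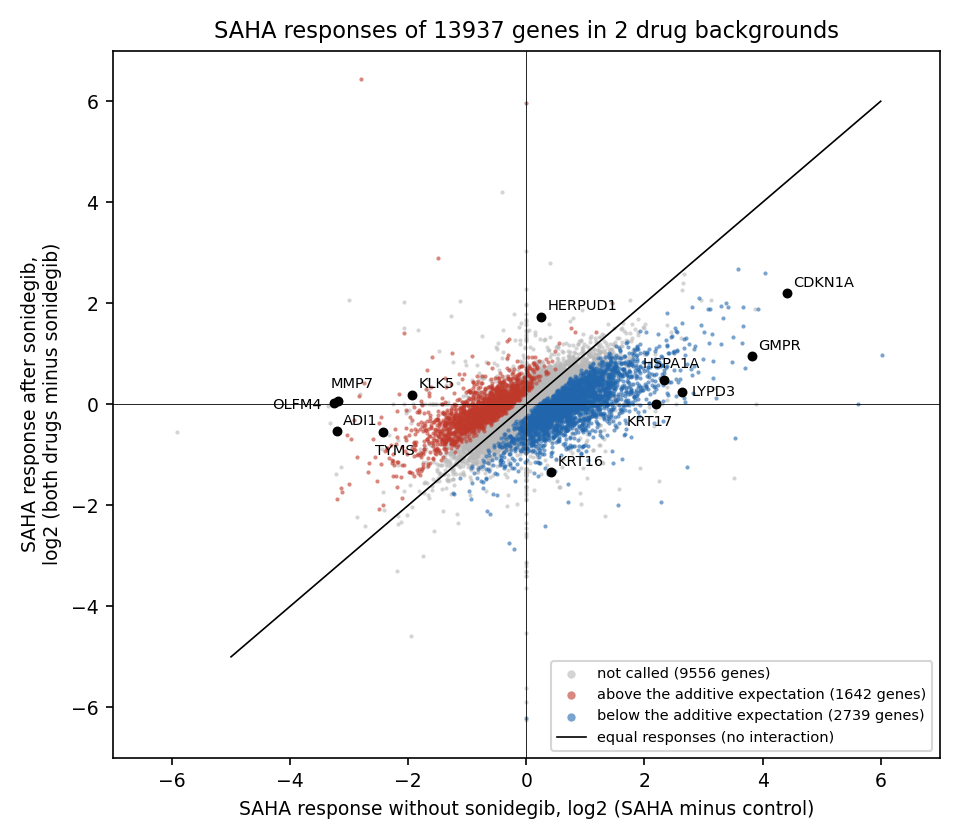
Each point is 1 of the 13937 genes tested; the x axis is the log2(TPM + 1) response to SAHA without sonidegib and the y axis the response after sonidegib, from separate libraries. Genes on the black diagonal are additive; the 1642 genes above expectation (red) lie mostly left of 0 and nearer to 0 on the y axis, and the 2739 below (blue) mostly right of 0.

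At the threshold itself, the called genes with the weakest evidence were DDO, ANKRD13B and TSPO, with interactions of −0.58, −0.61 and 0.24. Just outside lay LAMB2, ARHGEF4 and FNDC5, with −0.41, −0.58 and −1.28.

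Among lists with at least 10 members tested, genes of DNA replication were most often above expectation. Of 33 S phase genes tested, 30 were above and none below, with a median interaction of 0.90. SAHA lowered them without sonidegib (median response −0.92) but left them near their sonidegib level after it (median −0.08). Under the 27 alternative settings between 24 and 31 members were above and none was below.

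TYMS (ENSG00000176890, chr18:657604-673578) encodes thymidylate synthase, which makes dTMP for DNA synthesis. Control libraries had 109.7, 126 and 136 TPM, SAHA libraries 25.8, 20.5 and 20.7, sonidegib libraries 97.97, 96.2 and 99.98, and libraries with both drugs 69.03, 65.5 and 66.1. The SAHA libraries stood lowest, with no overlap with any other group, and the combination was well above them. The additive expectation was 17.5 TPM, so the interaction was 1.88 ± 0.13 (SE) with an adjusted p of 2.42e-06.

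CDC6 and MCM10 load and activate the replicative helicase. CDC6 read 24.4, 31.9 and 33.4 TPM in controls, 11.8, 8.78 and 12.7 with SAHA, 19.8, 19.6 and 22.98 with sonidegib and 23.4, 26.9 and 29.2 with both (interaction 1.69 ± 0.21 (SE), adjusted p = 1.23e-04). MCM10 read 8.24, 9.12 and 10.01 TPM in controls, 3.06, 3 and 3.52 with SAHA, 4.42, 5.22 and 4.92 with sonidegib and 5.68, 6.54 and 8.25 with both (interaction 1.68 ± 0.18 (SE), adjusted p = 4.55e-05). For both genes SAHA gave the lowest libraries on its own, and no library with both drugs was as low. The helicase subunits MCM2 to MCM7 were all above, by 0.82 to 1.34, as were the regulators E2F1 (1.39), UHRF1 (1.38) and cyclin E1, CCNE1 (1.45). PRIM1, POLD1 and RFC4 were not called (−0.01, 0.17 and 0.22), though RFC4 was with median-of-ratios scaling (0.33) and POLD1 after correction for transcript GC and length (0.47).

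Genes of the G2 phase and mitosis followed in the same direction. Of 31 tested, 21 were above and none below, with a median interaction of 0.61. Their median SAHA response was −0.89 without sonidegib and −0.30 after it. Their median sonidegib response was 0.39 without SAHA and 0.997 with it. The count above fell to 12 when additivity was judged on the TPM scale instead of the log2 scale.

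MKI67, the gene of the proliferation marker Ki-67, read 27.3, 24.1 and 21.6 TPM in controls and 9.37, 8.35 and 7.47 with SAHA. With sonidegib it read 18.6, 16.9 and 16.4 and with both drugs 16.8, 12.8 and 16.1, for an interaction of 1.25 ± 0.17 (SE) and an adjusted p of 2.28e-04. The SAHA libraries lay apart from and under all others, while the libraries with sonidegib and with both overlapped. Unlike MKI67, TOP2A, the mitotic form of DNA topoisomerase II, rose with sonidegib, the direction of the list's median. Sonidegib raised it from 36.2, 35.6 and 41.8 to 77.1, 83.7 and 83.6 TPM, SAHA lowered it to 15.6, 13.4 and 19.5, and both together left it at 69.7, 71.01 and 89.6. Its interaction was 1.10 ± 0.18 (SE) (adjusted p = 9.71e-04), and on the TPM scale it was not called. CENPF, a kinetochore protein, was also above (1.13 ± 0.27 (SE), adjusted p = 0.00863), as were CDK1 (0.74), CCNA2 (0.85) and CCNB1 (0.52). Of 19 homologous recombination and crosslink repair genes, 3 were above and none below, a share near the 11.8% called above among all genes tested; BRCA1 and BRCA2, at 0.60 and 0.55, were not called, but both were with median-of-ratios scaling (0.70 and 0.60). BRCA1 was also called without combination replicate 2 (0.78), and BRCA2 without sonidegib replicate 3 (0.63).

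Promoters of these genes are shown because E2F and NF-Y are the textbook regulators of S phase and G2/M genes. RefSeq windows (GRCh38.p14) of 250 bases before to 50 after the start were searched on both strands for TTTCGCGC (E2F) and CCAAT (NF-Y). Motifs of other factors were searched too, and their shares are not given here. The 150 bases before the start of 5 members are printed 5′ to 3′ on the strand of the gene, with matches on either strand in capitals, to the E2F motif for MCM6 and POLA2 and to the NF-Y motif for MKI67, TOP2A and CENPF; other motifs are left in lower case.
MCM6 (chr2:135876444-135876593, minus strand): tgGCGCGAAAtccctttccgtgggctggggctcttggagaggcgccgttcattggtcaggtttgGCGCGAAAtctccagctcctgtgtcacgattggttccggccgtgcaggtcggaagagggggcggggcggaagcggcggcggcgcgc
POLA2 (chr11:65261812-65261961, plus strand): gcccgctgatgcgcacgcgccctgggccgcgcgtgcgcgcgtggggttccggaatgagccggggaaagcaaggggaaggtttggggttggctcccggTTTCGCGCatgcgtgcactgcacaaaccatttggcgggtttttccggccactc
MKI67 (chr10:128126424-128126573, minus strand): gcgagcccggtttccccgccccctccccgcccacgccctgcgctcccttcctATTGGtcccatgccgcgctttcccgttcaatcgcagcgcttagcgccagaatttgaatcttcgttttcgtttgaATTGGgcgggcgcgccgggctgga
TOP2A (chr17:40417897-40418046, minus strand): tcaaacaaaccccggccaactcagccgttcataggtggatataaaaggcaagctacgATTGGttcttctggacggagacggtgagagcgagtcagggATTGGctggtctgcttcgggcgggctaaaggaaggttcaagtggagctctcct
CENPF (chr1:214603045-214603194, plus strand): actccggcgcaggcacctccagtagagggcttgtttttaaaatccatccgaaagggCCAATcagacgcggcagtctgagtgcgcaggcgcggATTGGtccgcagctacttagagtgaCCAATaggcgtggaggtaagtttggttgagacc

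TTTCGCGC stood in 5 of 29 matched S phase windows (17.2%), in 2.01% of windows of all genes above and in 1.06% of those of all protein-coding genes tested. CCAAT stood in 20 of 25 matched G2/M windows (80%), in 41.8% of windows of genes above and in 37.4% of all. Neither motif was particular to 1 list. CCAAT also stood in 16 of 29 S phase windows (55.2%) and in 11 of 22 windows of proteasome subunits (50%). TTTCGCGC stood in 1 of 25 G2/M windows (4%). MCM6 and POLA2, the subunit that ties DNA polymerase alpha to the helicase, were above by 0.92 and 1.12. A window was matched for 83.3% of protein-coding genes above but for 77.6% of those below, so the search counts as void for genes below, where too few had a window, and no share is given for them. A match is a run of letters and not evidence of binding.

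Inhibitors of the cell cycle went mostly the other way: of 15 CDK inhibitor and growth arrest genes tested, 6 were below and 2 above. CDKN1A (ENSG00000124762, chr6:36676460-36687339), the best known target of histone deacetylase inhibitors, read 3.58, 4.32 and 5.24 TPM in controls and 114, 115 and 110.1 with SAHA. It read 11.6, 12.3 and 11.8 with sonidegib and 51.8, 59.98 and 63.2 with both. The 4 groups did not overlap: SAHA alone gave the highest libraries, and the combination lay between SAHA alone and sonidegib alone. Fold changes that multiplied would have given 274 TPM, and the interaction was −2.22 ± 0.15 (SE) with an adjusted p of 1.96e-06. SAHA still raised CDKN1A after sonidegib, by 2.20 against 4.42 without it.

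CDKN2D (p19, an inhibitor of CDK4 and CDK6) behaved differently in level. Its combination libraries, 124, 138 and 150.5 TPM, were the highest of all, above SAHA alone at 103, 109 and 109 and sonidegib alone at 52.9, 45.3 and 52.2. It was still below the additive expectation on the log2 scale, 299 TPM (−1.12 ± 0.12 (SE), adjusted p = 4.47e-05). On the TPM scale, where increases are summed, its adjusted p was 0.84. CDKN1C (p57) was below at −1.41. The 2 genes above were CDKN2A (0.46) and SESN1, a p53 target (0.84).

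**Figure D2:**
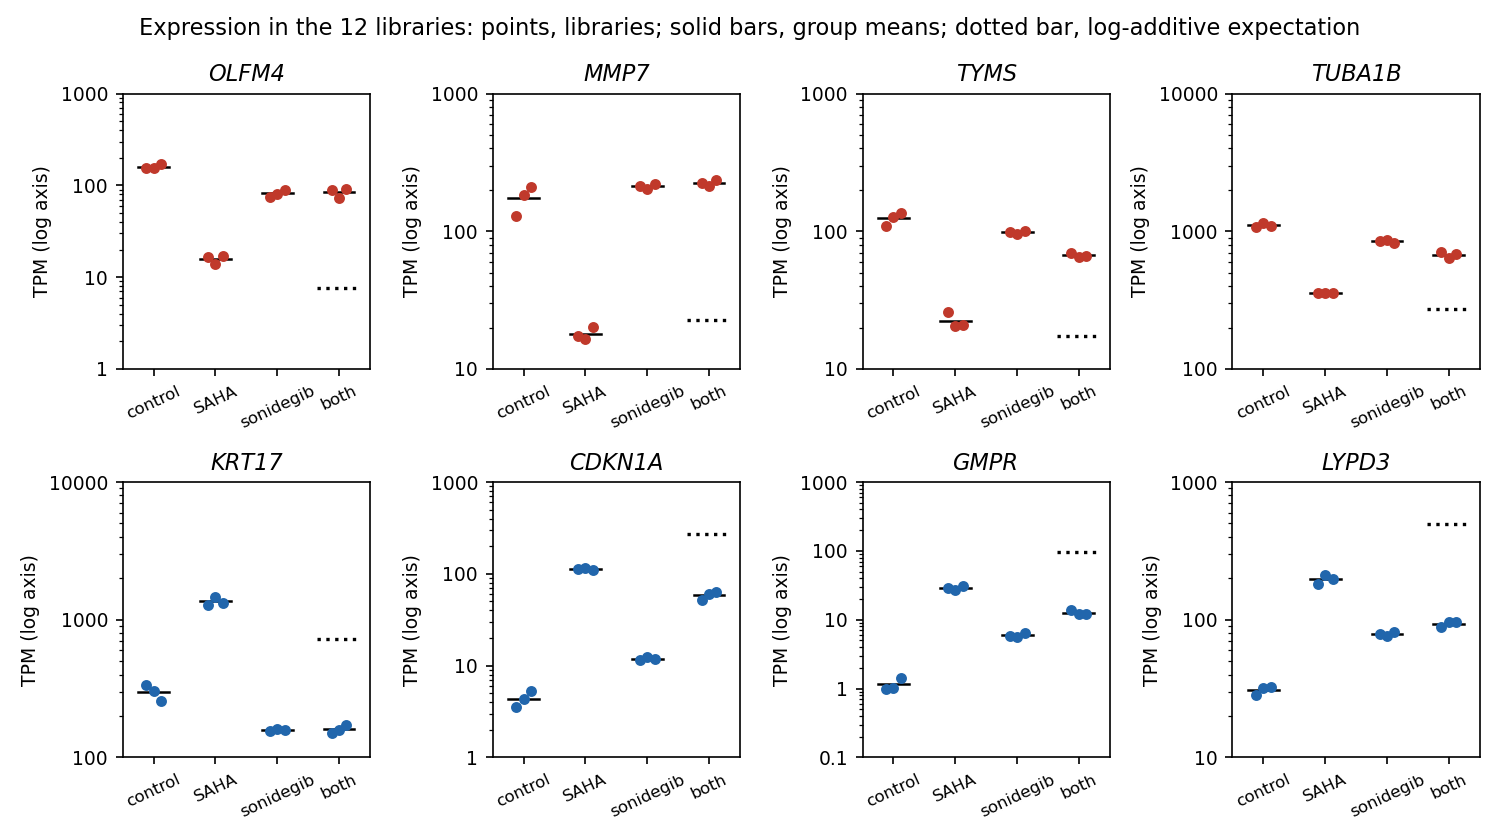
TPM on log axes for 4 genes above expectation (top, red) and 4 below (bottom, blue); points are libraries, solid bars the means of 3 and the dotted bar the level at which the log2 effects of the drugs would add. In the top row the combination sits over the dotted bar and in the bottom row under it, 4.65 times for CDKN1A on the TPM + 1 scale.

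The gene farthest above expectation was OLFM4 (ENSG00000102837, chr13:53028759-53052057), which encodes olfactomedin 4, a secreted glycoprotein. It read 155, 156 and 169.6 TPM in controls, 16.7, 14 and 17.1 with SAHA, 75.6, 81.5 and 89.1 with sonidegib and 88.8, 72.8 and 90.7 with both. SAHA alone gave the lowest libraries by a wide margin, and the libraries with both drugs overlapped those with sonidegib. The expectation was 7.68 TPM, the interaction 3.29 ± 0.14 (SE) and the adjusted p 1.90e-07. Its SAHA response was −3.25 without sonidegib and 0.03 after it.

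MMP7 (ENSG00000137673, chr11:102520508-102530753), a matrix metalloproteinase, showed the same pattern without a fall by sonidegib. It read 129, 183 and 208 TPM in controls, 17.4, 16.4 and 20.03 with SAHA, 214, 203 and 220 with sonidegib and 223, 212 and 235 with both. The interaction was 3.25 ± 0.20 (SE) with an adjusted p of 1.24e-06. Here too the SAHA libraries alone were low, and the combination lay among or above the sonidegib libraries.

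KLK5 and KLK6, neighbouring genes of kallikrein proteases on chromosome 19, were above at 2.13 ± 0.09 (SE) and 1.93 ± 0.18 (SE). For KLK5 the control libraries held 312, 308 and 274 TPM, the SAHA libraries 75.99, 78.8 and 76.2, the sonidegib libraries 142, 149.5 and 139 and the combination 179, 159 and 155. The combination was thus higher than either drug alone, though lower than control. Over 14 kallikreins and serpins 5 were above and 4 below, and this majority turned in 9 of the 27 settings, so the list has no stable direction.

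A second kind of gene above expectation was one that each drug lowered strongly on its own. ADI1, an enzyme of the methionine salvage pathway, read 191, 204 and 191 TPM in controls, 19.3, 20.7 and 20.8 with SAHA, 33.1, 34.6 and 34.9 with sonidegib and 25.5, 23.8 and 21.3 with both (interaction 2.68 ± 0.10 (SE), adjusted p = 1.40e-07). The combination did not fall under the SAHA libraries, where multiplied folds of TPM + 1 would have reached 2.81 TPM. FAM111B, a replication-associated protease, went from 48.4 ± 5.44 (SD, n = 3) to 10.1 ± 1.81, 6.65 ± 0.9802 and 7.86 ± 1.73 TPM in the same order. GAL, the neuropeptide galanin (3.17), the transcription factor ATF5 (2.13), the chemokine CCL2 (2.07) and the actin-binding TAGLN were of this kind too. For 5 of the 15 largest genes above, these 4 among them, and for 44 of all genes above, the log2 expectation lay under 0 TPM, a level that cannot occur, which by construction places them above. None of the genes below had such an expectation.

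The genes farthest below were mostly ones that SAHA induced strongly from a low level. This describes the ranking and carries no test, because the response without sonidegib enters the interaction with a minus sign. GMPR (ENSG00000137198, chr6:16238580-16295549), guanosine monophosphate reductase, read 1, 1.02 and 1.43 TPM in controls, 28.9, 27.4 and 31.1 with SAHA, 5.87, 5.7 and 6.51 with sonidegib and 13.98, 11.98 and 12.1 with both. Each drug raised it, and the combination lay between the drugs, without overlap. Multiplied folds of TPM + 1 would have given 97.7 TPM (interaction −2.85 ± 0.14 (SE), adjusted p = 4.32e-07). ACTBL2, an actin-like gene that passed the filters only through its SAHA libraries, responded to SAHA mainly without sonidegib. It read 0.96, 0.76 and 0.89 TPM in controls, 23.4, 22.1 and 24.7 with SAHA, 0.07, 0.04 and 0.06 with sonidegib and 0.57, 0.5 and 1.21 with both, for an interaction of −2.99 ± 0.22 (SE). Since its libraries with sonidegib lie near or under 1 TPM, the size depends on the pseudocount, and with 0.1 in place of 1 it was −2.23.

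LYPD3 (C4.4A, a urokinase receptor-like surface protein) read 28.3, 31.8 and 32.6 TPM in controls, 181, 209.9 and 197 with SAHA, 79.4, 76.2 and 81.7 with sonidegib and 88.1, 95.7 and 96.7 with both (−2.39 ± 0.10 (SE), adjusted p = 1.90e-07). The combination exceeded sonidegib alone by a small step and stayed under SAHA alone. NR4A1, an immediate early nuclear receptor, was below at −2.27 ± 0.18 (SE) and KCTD17, an adaptor of cullin ligases, at −2.64 ± 0.13 (SE). Some of the 15 largest genes below rest on uneven libraries: CDHR2 read 5.15, 0.3 and 8.17 TPM in controls, with an adjusted p of 0.0275, and was no longer called without replicate 1 or 3 of SAHA, 1 or 2 of sonidegib, or 2 or 3 of the combination. BORCS7-ASMT is a readthrough gene that shares exons with its neighbours and read 11.2, 4.9 and 1.76 TPM with sonidegib. Its interaction was −5.40 with a pseudocount of 0.1 and −1.10 with 5. On the TPM scale neither gene was called (adjusted p = 0.1363 for CDHR2 and 0.08847 for BORCS7-ASMT). CDHR2 was also not called without a filter or with a pseudocount of 5.

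The genes of the drug targets themselves were examined next. Of 11 zinc-dependent deacetylase genes, 5 were below (HDAC10, HDAC11, HDAC5, HDAC6 and HDAC1) and none above. HDAC11 (ENSG00000163517, chr3:13479724-13506424) read 10.2, 11.2 and 11.6 TPM in controls, 27.3, 28.9 and 28.2 with SAHA, 20.9, 19.01 and 19.5 with sonidegib and 15.8, 15.7 and 20.1 with both (−1.48 ± 0.13 (SE), adjusted p = 1.42e-05). SAHA raised it only without sonidegib. HDAC10 was below at −1.49 ± 0.19 (SE), HDAC5 at −1.28 ± 0.09 (SE) and HDAC1 at −0.56 ± 0.09 (SE). HDAC2 and HDAC3 were not called, at 0.29 and −0.14; HDAC2 was called above under 75th percentile or median-of-ratios scaling. On the TPM scale HDAC2 was called above and HDAC3 below. Among 12 histone acetyltransferases 3 were above (25%) and 1 below (8.33%), against 11.8% and 19.7% among all genes tested. Across the settings 1 to 5 of them were above and 0 to 3 below. KAT2A (GCN5) read 34.99, 37.1 and 33.8 TPM in controls, 10.04, 9.32 and 10.2 with SAHA, 5.47, 5.18 and 5.64 with sonidegib and 3.96, 3.48 and 4.42 with both. Each drug lowered it and the combination was lowest, yet the combination lay over the expectation of 0.922 TPM. The interaction was 1.36 on the log2 scale.

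Hedgehog genes gave little to test. Of 16 listed genes found, 7 reached a mean of 1 TPM, and 1 of these was called: CDON, a co-receptor for Hedgehog ligands, was below at −0.69 ± 0.18 (SE) (adjusted p = 0.01302). On the TPM scale CDON was not called (adjusted p = 0.1475). PTCH1, the ligand receptor and a target of the pathway, read 2.42, 2.19 and 2.81 TPM in controls, 5.13, 4.96 and 5.53 with SAHA, 3.48, 4.51 and 4.91 with sonidegib and 4.89, 6.78 and 5.26 with both, and was not called (−0.52 ± 0.20 (SE), adjusted p = 0.0665). It was called below when combination replicate 2 (adjusted p = 0.031) or sonidegib replicate 1 (0.031) was left out. GLI1 fell under the filter, reading 0.09, 0.09 and 0.1 TPM in controls and 1.01, 2.26 and 2 with SAHA. It read 1.01, 0.39 and 0.47 with sonidegib and 1.25, 1.36 and 1.58 with both. SMO, the target of sonidegib, had group means between 0.107 and 0.903 TPM.

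NRF2 targets, the genes of antioxidant defence, were most often below expectation among lists with at least 10 members tested. Of 21 tested 19 were below and 1 above, with a median interaction of −0.67; the median SAHA response was 0.44 without sonidegib and −0.12 after it. Between 15 and 19 were below under the 27 alternatives. Sonidegib alone raised the list by a median of 0.73 on the log2 scale.

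OSGIN1 (ENSG00000140961, chr16:83948282-83966332), an oxidative stress-induced growth inhibitor, read 4.07, 4.09 and 4.2 TPM in controls, 13.3, 13.5 and 12.7 with SAHA, 15.6, 18.5 and 19.6 with sonidegib and 17.5, 15.9 and 16.5 with both. Each drug raised it, and the combination overlapped sonidegib alone (−1.57 ± 0.12 (SE), adjusted p = 4.45e-06). AKR1C3, an aldo-keto reductase, read 32.1, 35.2 and 38.02 TPM in controls, 68.9, 71.7 and 71.8 with SAHA, 247, 247 and 253 with sonidegib and 173, 178 and 179.6 with both. SAHA raised its level without sonidegib (0.99) and lowered it after sonidegib (−0.49), for an interaction of −1.49 ± 0.08 (SE). Reads of AKR1C3 and its close paralogs AKR1C1 and AKR1C2 may be shared, and those were below too, at −0.80 and −0.92. The glutathione synthesis genes GCLM (−1.28) and GCLC (−0.68), HMOX1 (−0.77), TXNRD1 (−0.67) and NQO1 (−0.38) were below; NQO1 was not called with median-of-ratios scaling (−0.27). SLC7A11 was not called (−0.31), and TXN, thioredoxin, was the 1 member above (0.46 ± 0.11 (SE)).

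Chaperones did not move as 1 group. Of 15 heat shock genes, in a list of cytosolic members that also held the mitochondrial HSPD1 and HSPE1, 6 were below and 3 above. HSPA1A and HSPA1B, the neighbouring and nearly identical inducible HSP70 genes, were below at −1.85 ± 0.08 (SE) and −1.50 ± 0.10 (SE); reads may be shared between them. HSPA1A read 158, 151 and 144 TPM in controls, 706, 804 and 776 with SAHA, 171, 177 and 170.3 with sonidegib and 242, 239.8 and 238 with both. SAHA alone thus gave libraries far over the other 3 groups. CRYAB was below at −1.13 and HSPB1 at −1.11. The genes above were HSPD1 and HSPE1, a mitochondrial chaperonin pair that shares a promoter region (0.68 and 0.70), and the cytosolic HSP90AB1 (0.33).

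HERPUD1 (ENSG00000051108, chr16:56932048-56944863), which serves degradation of proteins from the endoplasmic reticulum, had the largest interaction among genes above whose SAHA response was larger after sonidegib. HERPUD1 was picked after its values were seen, from genes whose SAHA response was larger, or called only, after sonidegib. So were the genes of the next 2 paragraphs, apart from ID1. It read 64.2, 67.5 and 81.3 TPM in controls, 82.9, 87.1 and 82.4 with SAHA, 199, 224 and 214 with sonidegib and 715, 726 and 683 with both. The combination exceeded every other library by far. SAHA raised it by 0.25 without sonidegib and by 1.73 after it, and the combination was 2.801 times the expectation on the TPM + 1 scale (1.49 ± 0.11 (SE), adjusted p = 4.37e-06). CHAC1, a glutathione-degrading gene of the ATF4 response, was above at 1.31 ± 0.16 (SE): SAHA lowered it without sonidegib (−0.58) and raised it after (0.73). The endoplasmic reticulum chaperone list as a whole had 2 above (10%) and 5 below (25%) of 20. The 25 ATF4 targets had 6 above (24%) and 5 below (20%). Among all genes tested the shares were 11.8% and 19.7%. The majority of either list turned under other settings.

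Reinforced falls were seen for genes that sonidegib raised and SAHA then brought down. RCAN1, a regulator of calcineurin, read 85.7, 87.7 and 98.1 TPM in controls, 56.7, 51.9 and 62.01 with SAHA, 328, 314 and 338 with sonidegib and 65.01, 71.3 and 88.2 with both (−1.46 ± 0.15 (SE), adjusted p = 3.07e-05). CASP14, a caspase of keratinocyte differentiation, read 266, 231 and 279.5 TPM in controls, 173, 157 and 192 with SAHA, 717, 706 and 678 with sonidegib and 216, 190 and 207 with both (−1.20 ± 0.12 (SE), adjusted p = 3.02e-05). For RCAN1 and CASP14 sonidegib alone gave the highest libraries and the combination returned near or under control.

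Some genes rose with SAHA more, or only, after sonidegib. ID2, an inhibitor of basic helix-loop-helix factors, read 6.9, 9.28 and 10.03 TPM in controls, 5.04, 7.14 and 8.17 with SAHA, 3.35, 2.52 and 2.53 with sonidegib and 6.1, 7.9 and 10.4 with both. Sonidegib lowered it and SAHA restored it (1.58 ± 0.29 (SE), adjusted p = 0.00171). Its relative ID1, a member of the TGF-beta, BMP and ID list, went the opposite way: it read 8.12, 8.46 and 8.09 TPM in controls, 36.97, 34.4 and 43.1 with SAHA, 27.7, 26.4 and 27.2 with sonidegib and 29.6, 27.4 and 25.6 with both, and each drug raised it while the combination overlapped sonidegib alone (−2.06 ± 0.12 (SE), adjusted p = 8.31e-07). The regulator of sterol synthesis INSIG1 was above at 0.62 ± 0.15 (SE), its SAHA response 0.82 without sonidegib and 1.43 after it.

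Interferon-stimulated genes were below expectation in 16 of 21 tested, with none above and a median interaction of −0.73. Their median SAHA response was 0.65 without sonidegib and −0.14 after it. MX1, an antiviral GTPase, read 21.8, 21.2 and 21.2 TPM in controls, 37.1, 37.1 and 37.03 with SAHA, 25.8, 25.2 and 28.4 with sonidegib and 12.4, 12.8 and 19.3 with both. SAHA raised it without sonidegib and lowered it after, so that the combination libraries were the lowest (−1.58 ± 0.18 (SE), adjusted p = 7.71e-05). ISG20, an exonuclease, was below at −1.79 ± 0.17 (SE) and the transcription factor IRF7 at −1.44 ± 0.10 (SE), both with SAHA responses of opposite sign in the 2 backgrounds. IFIT2 and OAS3 were not called (−0.05 and −0.22).

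Antigen presentation genes gave 5 below and 1 above of 14. The immunoproteasome subunit PSMB9 read 30.1, 32.7 and 35.7 TPM in controls, 62.1, 75.8 and 71.02 with SAHA, 49.4, 44.2 and 50 with sonidegib and 30.1, 33.1 and 34.2 with both (−1.61 ± 0.13 (SE), adjusted p = 5.95e-06). The peptide transporter subunit TAP1 was below at −1.10 and HLA-E at −0.82, whereas HLA-B, HLA-C and B2M were not called (−0.22, −0.12 and 0.12), though HLA-C was with quantile normalization (−0.27).

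Immediate early and growth factor genes were also below. Of 13 AP-1 and immediate early genes 8 were below and none above; of 20 genes of the EGFR family, its ligands and MAPK feedback 9 were below and none above. FOS read 3.08, 2.3 and 3.06 TPM in controls, 16.2, 14.98 and 17.7 with SAHA, 3.97, 3.11 and 3.98 with sonidegib and 9.09, 8.01 and 9.2 with both (−1.12 ± 0.17 (SE), adjusted p = 4.53e-04), and EGR1 was below at −1.21 ± 0.16 (SE). SAHA raised both in either background, less after sonidegib. DUSP5, a phosphatase that acts on ERK, read 9.29, 11.2 and 11.7 TPM in controls, 45.1, 45.1 and 47.1 with SAHA, 17.7, 16.8 and 20.1 with sonidegib and 13.9, 17.7 and 18.03 with both and was not raised by SAHA after sonidegib (−2.13 ± 0.16 (SE), adjusted p = 3.41e-06). EGFR itself was not called (−0.06), nor were JUN (0.08) and DUSP6 (0.00); after correction for transcript GC and length JUN was called above (0.31).

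Keratins and other basal epithelial genes split. Of 15 tested 8 were below and 2 above. KRT17 (ENSG00000128422, chr17:41619441-41624842) read 333, 302 and 256 TPM in controls, 1290, 1473 and 1313 with SAHA, 157, 159.8 and 159 with sonidegib and 150.2, 158 and 174 with both. SAHA alone gave libraries several times over control, and none of this rise was seen after sonidegib (0.01), for an interaction of −2.18 ± 0.13 (SE) and an adjusted p of 1.05e-06. KRT16 was raised by sonidegib to 126, 128 and 119 TPM from 62.6, 60.6 and 58.5 in controls, and the combination, at 52.3, 48.1 and 45.5, was under both (−1.76 ± 0.10 (SE)). KRT6B lay above instead, at 1.73 ± 0.14 (SE), as SAHA lowered it less after sonidegib (−0.49 against −2.22). Keratin genes of 1 type are similar in sequence, and how shared reads were assigned is not given.

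Tubulins separated by isotype. Of 15 tested 4 were above, among them the abundant TUBA1B (1.30), TUBA1C (0.68) and TUBB (0.51). The 7 below included the neuronal isotypes TUBB2B (−2.11), TUBA1A (−1.87) and TUBB3 (−1.39). TUBA1B read 1079, 1144 and 1097 TPM in controls, 357, 357 and 358 with SAHA, 856, 857 and 827 with sonidegib and 703, 639 and 679.8 with both. TUBA1A read 14.8, 14.1 and 14.7 TPM in controls, 77.8, 75.8 and 81.7 with SAHA, 55.9, 57.3 and 52.8 with sonidegib and 76.9, 74.7 and 81.6 with both. TUBA1B was lowest under SAHA alone, and TUBA1A was about as high with both drugs as with SAHA. The isotypes are similar in sequence, and reads may be shared. MAPT, the gene of tau, was below at −2.09 ± 0.22 (SE), and 4 of 7 neuronal genes tested were below with none above.

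Several lists of protein and RNA handling had most members above. Of 27 proteasome subunits 17 were above and none below, of 20 hnRNP and SR splicing regulators 13 and none, and of 20 translation factors 14 and 1. Aminoacyl-tRNA synthetases, which charge tRNAs for translation, did not share this, with 4 above and 6 below of 18, a majority that turned with median-of-ratios scaling. The median SAHA response of the proteasome list was −0.26 without sonidegib and 0.06 after it. PSMB6, a catalytic subunit, read 191, 194 and 189.8 TPM in controls, 111, 116 and 110.1 with SAHA, 144, 136 and 142 with sonidegib and 132, 133 and 138 with both (0.70 ± 0.06 (SE), adjusted p = 9.08e-06). Its range within each group was narrow, and the combination overlapped sonidegib alone. The other catalytic subunits PSMB5 and PSMB7 were above at 0.59 and 0.63. HNRNPL and EIF4A1, an RNA helicase of translation initiation, were above at 0.88 and 0.87.

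Of 26 genes of MYC activity and ribosome biogenesis 13 were above and 1, ODC1, below. NPM1, nucleophosmin, read 2975, 3015 and 3092 TPM in controls, 1144, 1034 and 1391 with SAHA, 2410, 2673 and 2444 with sonidegib and 2086, 2108 and 2059 with both (1.09 ± 0.12 (SE), adjusted p = 6.36e-05). NCL, nucleolin, was lowered by each drug and was above at 1.17 ± 0.10 (SE). MYC itself was not called (0.25 ± 0.13 (SE), adjusted p = 0.163); it was called above with median-of-ratios (0.37) and 75th percentile scaling (0.33), after correction for transcript GC and length (0.41), and without control replicate 1 (0.36). Of 34 cytosolic ribosomal proteins 11 were above and none below, a count that fell to 5 without the intensity trend in the fit. Among 25 nuclear genes of oxidative phosphorylation 13 were above and 2 below. CYC1, cytochrome c1, was among those above, at 0.95 ± 0.08 (SE). None of the 13 mitochondrially encoded mRNAs was called.

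The called lysosomal genes lay below, while the direction of the cholesterol genes depended on the scaling. Of 26 lysosome and autophagy genes 13 were below and none above; GABARAPL1, an autophagosome protein, read 18.99, 18.6 and 23.3 TPM in controls, 52.7, 56.4 and 60.04 with SAHA, 40.7, 45.97 and 49.6 with sonidegib and 42.04, 45.8 and 54.8 with both (−1.38 ± 0.16 (SE), adjusted p = 9.37e-05). After a correction for transcript GC and length the counts of that list were 8 below and 4 above. Of 25 cholesterol genes 10 were below and 3 above; MVD, mevalonate diphosphate decarboxylase, was below at −0.89 ± 0.08 (SE). Median-of-ratios scaling gave 5 in each direction. Of 20 pro-apoptotic genes 4 were below, BIK and BAD among them, and none above, a share near the 19.7% called below among all genes tested; BCL2L11 (BIM), at 0.12, was not called.

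**Figure D3:**
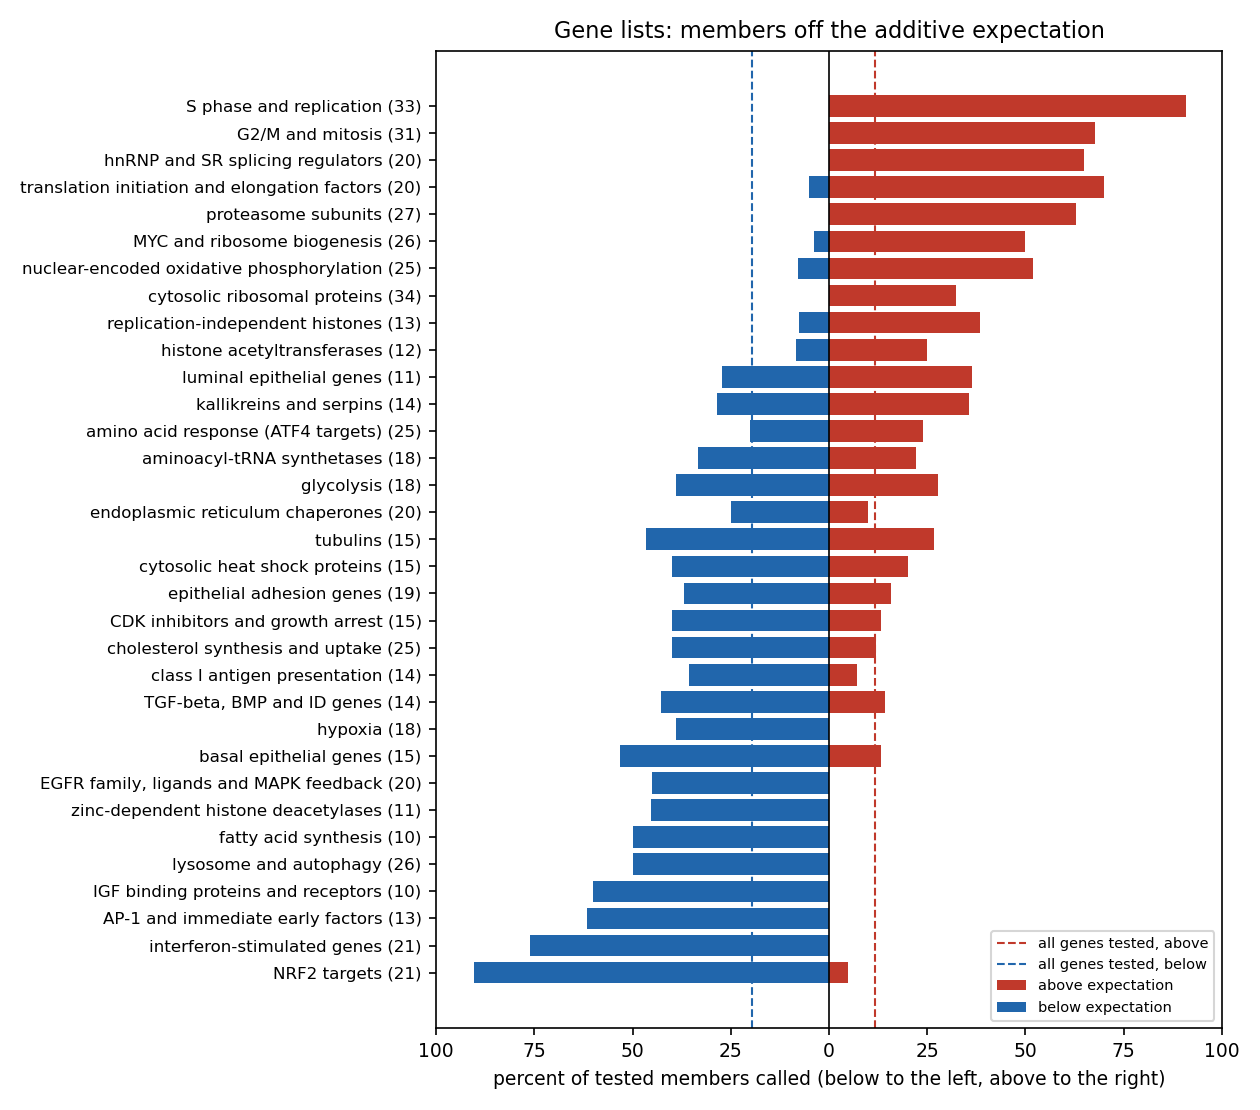
Bars give the percent of each list's tested members (number in brackets) called above (red, right) or below (blue, left), for lists of at least 10 tested genes with calls at or over the background share; dashed lines mark 11.8% and 19.7%, the shares among all genes tested. S phase, G2/M and splicing genes are at the top and AP-1, interferon and NRF2 genes at the bottom.

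**Figure D4:**
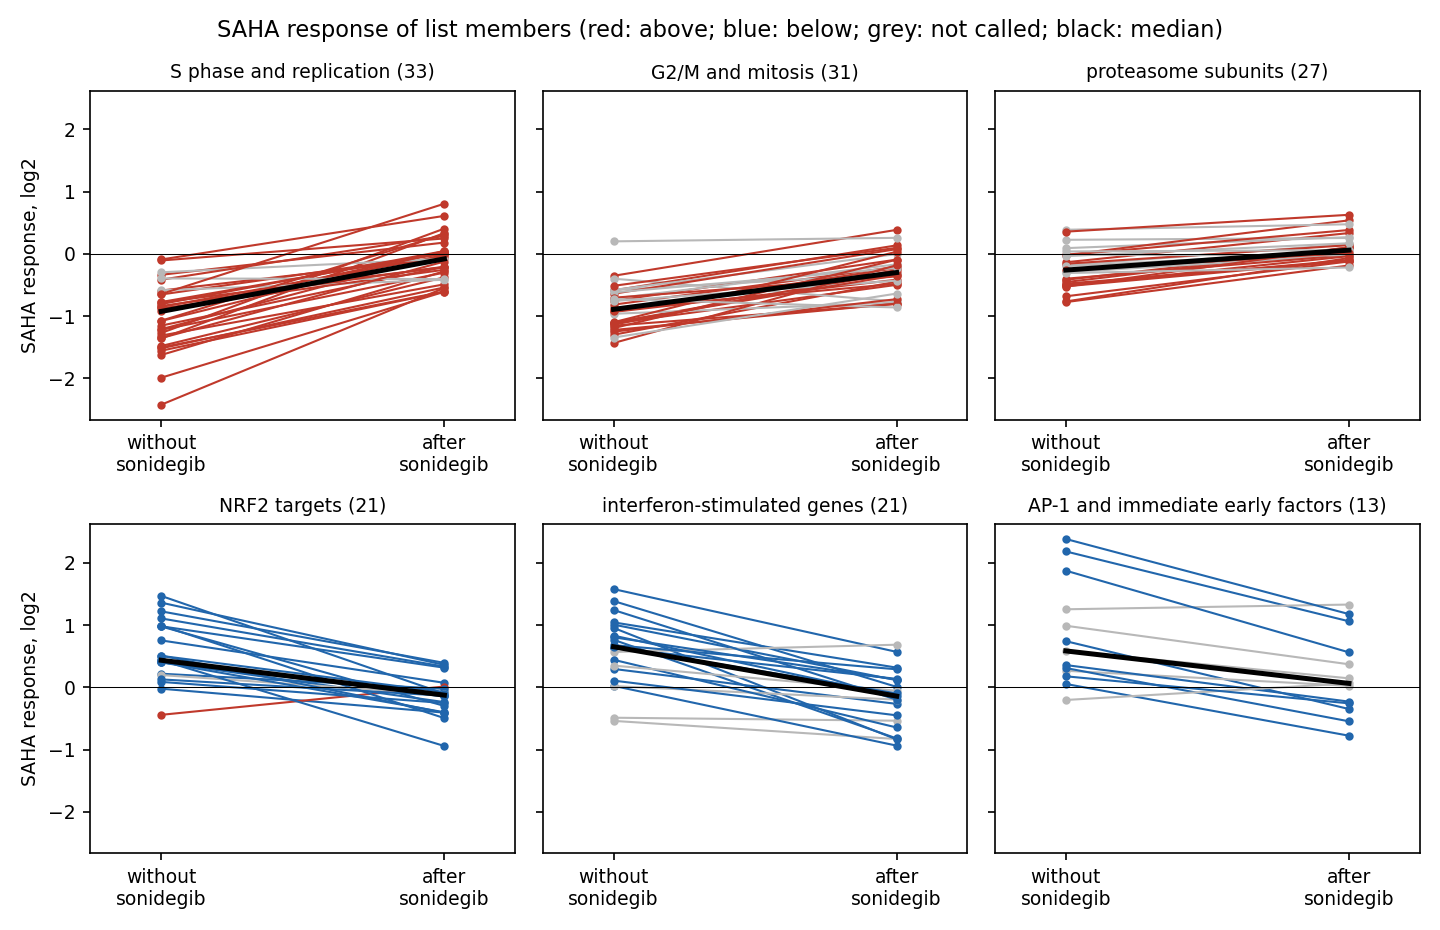
Lines join the log2(TPM + 1) SAHA response of each tested member without sonidegib (left) and after it (right) for 6 lists; red lines are called above, blue below, and the black line is the median. The S phase median moved from −0.92 to −0.08 and the NRF2 median from 0.44 to −0.12.

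Genes below expectation shared a base composition that the rule did not use. Their longest transcripts had a median GC content of 54.7%, against 47.9% for protein-coding genes above and 48.5% for all tested. Over 5 equal groups of genes by GC content the share called below was 6.88% in the lowest and 36% in the highest, while the share above ranged from 11.1% to 14.9%. The median interaction went from 0.08 to −0.23 over the same groups. A correction of each library for transcript GC and length, added after these values were seen, gave 2767 genes above and 2407 below. Of the calls, 1592 genes above and 2111 below remained and none turned; S phase genes were then 31 above of 33, interferon-stimulated genes 16 below of 21 and NRF2 targets 16 below of 21. The part of base composition in the result was not tested beyond this correction.

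**Figure D5:**
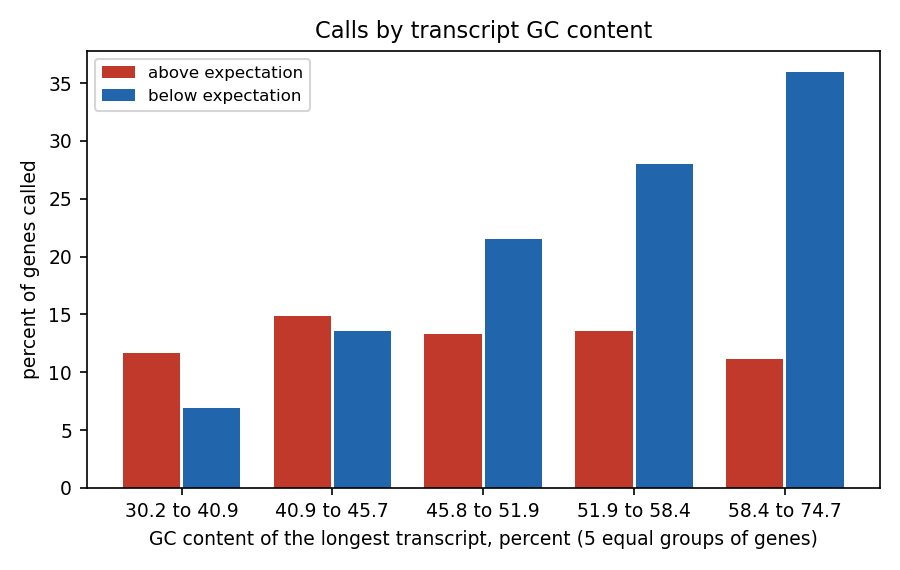
Percent of protein-coding genes called above (red) and below (blue) the additive expectation in 5 equal groups by GC content of the longest transcript. The blue bars rise from 6.88% to 36%, and the red bars stay between 11.1% and 14.9%.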

How the data were processed

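RNA-seq of 12 libraries was analysed from 1 deposited table, in which the authors give TPM per gene and library, with the same total in every library. Bowtie2 2.4.1 and the build GRCh38 are named in the submitters' processing notes; the quantifier, annotation, strandedness and rRNA treatment are not given in the sources used here. Depth is unknown, so no counting interval is given. After adding 1 and taking log2, limma 3.58.1 (R 4.3.3) was fitted to all tested genes: a model of 4 group means with 8 residual degrees of freedom, eBayes with an intensity trend, two-sided tests, and Benjamini-Hochberg adjustment over 13937 genes for the contrast (SAHA+sonidedgib minus sonidedgib) minus (SAHA minus Con). The additive expectation is SAHA plus sonidegib minus control on the log2 scale, turned back to TPM. The code was tested on simulated data.

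Gene type, position, transcript length and GC came from GENCODE 29, which matched 58611 of 59324 identifiers; 148 tested genes have another name there, the table's being printed. Named genes were the 15 largest per direction among called protein-coding genes with a group mean of at least 5 TPM and non-overlapping library differences, up to 3 per direction in each of 50 lists, and fixed genes; other list members are given with their interaction alone. The members and lists were chosen with earlier results of these data known. Alternatives were pseudocounts, filters, scalings, additivity in TPM, a replicate block and leaving out each library. A few genes are not reported here.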

Additional observations from a re-analysis of the deposited data

Results flagged for a closer look

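The SAHA response was called in both backgrounds with opposite signs for the following genes, the 5 largest in each direction with a group mean of at least 5 TPM; the interaction is the test of the difference. Above expectation, SAHA lowered the gene without sonidegib and raised it after: TMEM203 had an interaction of 2.53, KLK5 of 2.13, DTL of 1.89, TFCP2L1 of 1.75 and MCM10 of 1.68. DTL, a substrate receptor of the CRL4 ubiquitin ligase in S phase, read 18.96, 17.1 and 21.1 TPM in controls, 6.81, 6.06 and 7.24 with SAHA, 11.2, 11.8 and 12.9 with sonidegib and 16.5, 16.1 and 20.1 with both. TMEM203 is low, reading 0.83, 0 and 0.51 TPM with SAHA.

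Below expectation, SAHA raised the gene without sonidegib and lowered it after: FHL1 had an interaction of −2.53, TIMP2 of −2.13, CLIC3 of −1.998, BICDL2 of −1.99 and the gene the table names AC011462.1 of −1.98. The identifier of the last, ENSG00000105329, is TGFB1 in GENCODE 29, so TGFB1 was missing from the TGF-beta list, which was matched by the table's names. It read 10.3, 10.5 and 11.6 TPM in controls, 29.6, 32.3 and 26.4 with SAHA, 36.2, 42.7 and 35.7 with sonidegib and 26.2, 24.4 and 23.04 with both. TIMP2, an inhibitor of metalloproteinases, read 12.9, 11.6 and 13.6 TPM in controls, 50.1, 49.1 and 50.5 with SAHA, 19.2, 19.3 and 19.8 with sonidegib and 15.6, 16.8 and 16.8 with both.

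Signal outside the measurement appeared for 5S ribosomal RNA, which was listed at 0 in the control libraries and reached 12641 TPM in 1 library with sonidegib.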

How the results depend on the processing

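The total of 4381 calls stayed within 1.5 times under the alternatives run, except at an adjusted p under 0.01, which left 2630 (899 above and 1731 below). The count above rose to 2581 with median-of-ratios scaling and to 2767 with the added GC and length correction. Leaving out 1 library at a time gave 1336 to 1686 above, 2331 to 2909 below and 3776 to 4297 in all. On the TPM scale 1398 of the genes above and 2391 of those below were called with the same sign, and 1 and 2 with the opposite sign. For 349 of the genes above and 0 of those below, the summed expectation lay under 0 TPM, a level that cannot occur. By construction those 349 had a positive sign on the TPM scale. Same-numbered libraries were not paired by the labels: their deviations correlated at −0.06 to 0.11, with 1 of 18 pairs over 0.1, and 8 of 12 libraries correlated best with their own number. A replicate block gave 1864 above and 2934 below, and among the named genes it changed the call of HLA-B alone, to below (adjusted p = 0.01739). Of 131 genes named with a test, 113 kept their side of the threshold in every setting that tested them; the filter at 5 TPM kept 119 of the 131. None of the called genes among them changed sign, while uncalled genes near 0, PRIM1, DUSP6, EGFR, IFIT2, HLA-C, JUN and B2M, did in some settings. The depth of the libraries is unknown, which limits what low genes can show.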
